A study of Mus musculus with 18 samples.

Results

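The transcription factors that direct CD4 T cells into the T helper lineages were followed here in sorted regulatory (Treg) and effector (Teff) T cells of mice. The set comprises 7 genes, Tbx21, Eomes, Stat4, Hlx, Gata3, Rora and Ahr, found by gene name. These genes, and the gene lists used below, were chosen with earlier results of these data known. Their counts beside the share of all probe sets are therefore descriptions, not tests. Every probe set that the deposited annotation gives to one of these names was included, which made 16 of the 45101 probe sets in the table of 10 arrays and 11 of the 22690 in the table of 8 arrays. Rora accounted for 8 probe sets in the larger table and 3 in the smaller one, Eomes and Ahr for 2 each in both tables, and the remaining 4 genes for 1 each. Probe sets of 1 gene read the same transcripts and are not replicates. Where a gene had several, the one with the highest mean over the arrays of its table is called its lead probe set, and the lead was the same in both tables.

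Affymetrix arrays were hybridised with total RNA from CD4 T cells of mice aged 6 to 8 weeks, 18 arrays in 6 groups. aTreg (5 arrays) and Teff (5 arrays) are the Foxp3-positive and Foxp3-negative cells of spleen and lymph node in Foxp3DTR animals that received diphtheria toxin (DT), and both groups carry the transgene and received the toxin. In these mice the receptor for the toxin is made under control of Foxp3, the factor that defines the Treg lineage, so that the toxin removes Treg cells. B16_Treg and B16_Teff (2 arrays each) came from tumours grown from the melanoma line B16, and Spl_Treg and Spl_Teff (2 arrays each) from spleen and lymph nodes, all from Foxp3GFP mice, in which green fluorescence marks the cells that express Foxp3. The 10 arrays of DT-treated mice and the 8 arrays of Foxp3GFP mice stand in separate tables, normalized separately, so levels were never set across them. Values are log2 expression, a difference of 1 meaning a doubling of signal. The arrays' medians were 4.05 to 4.14 in the table of 10 and 5.87 to 5.90 in the table of 8, and a probe set below its array's median is called dim.

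Foxp3 went against the Treg label on several arrays, and some arrays stood apart from their group. Foxp3 itself averaged 3.22 ± 0.127 (SD, n = 5) in aTreg and 3.19 ± 0.181 (SD, n = 5) in Teff arrays. In Foxp3GFP mice it averaged 3.25 ± 0.074 in B16_Treg, 3.15 ± 0.036 in B16_Teff, 9.97 ± 0.029 in Spl_Treg and 3.12 ± 0.10 in Spl_Teff arrays (SD, n = 2 each). Foxp3 was thus dim on 7 of the arrays that bear the Treg label, and "Treg" is used below for the label. Il2ra (CD25), through which Treg cells take up interleukin-2, did separate the labels, at 9.78 against 5.74 in DT-treated mice, 9.35 against 5.09 in the tumour and 9.07 against 4.43 in spleen and lymph node. Ctla4 did so too, at 11.48 against 8.40, 13.68 against 11.65 and 12.98 against 10.75 in the same order. Of the 5 Treg markers measured, 0 were lower in Treg arrays in any of these settings. Sex-linked transcripts separated tumour from spleen: on the 4 tumour arrays Xist stayed at or below 2.62 and Ddx3y, from the Y chromosome, at or above 9.91, whereas on the other 4 Xist reached 10.57 or more and Ddx3y 2.81 or less. Tumour and sex-linked expression therefore cannot be told apart in any comparison of tumour with spleen. The mean correlation with the rest of its group was 0.981 for aTreg array 4, 0.972 for Teff array 4 and 0.977 for Teff array 5, and at least 0.986 for the other 7 arrays of DT-treated mice. Whether each array is a separate animal or a pool is not in the labels, so p-values measure only the spread between these samples. The number of arrays limits the precision.

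T helper lineages are set by a small number of master factors. Stat4 carries the interleukin-12 signal, and Tbx21 (T-bet), assisted by Hlx, installs the Th1 programme with its interferon-gamma and chemokine genes. Eomes is the paralogue of Tbx21 that is best known from CD8 T cells and natural killer (NK) cells. Gata3 directs Th2 differentiation and is also used by Treg cells at barrier sites. Rora is a nuclear receptor that takes part in the Th17 programme, and Ahr is a ligand-activated receptor that promotes interleukin-22 production and shapes T cells at barrier surfaces. Treg cells can take up such factors and then carry the chemokine receptors of the matching helper lineage.

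**Figure D1:**
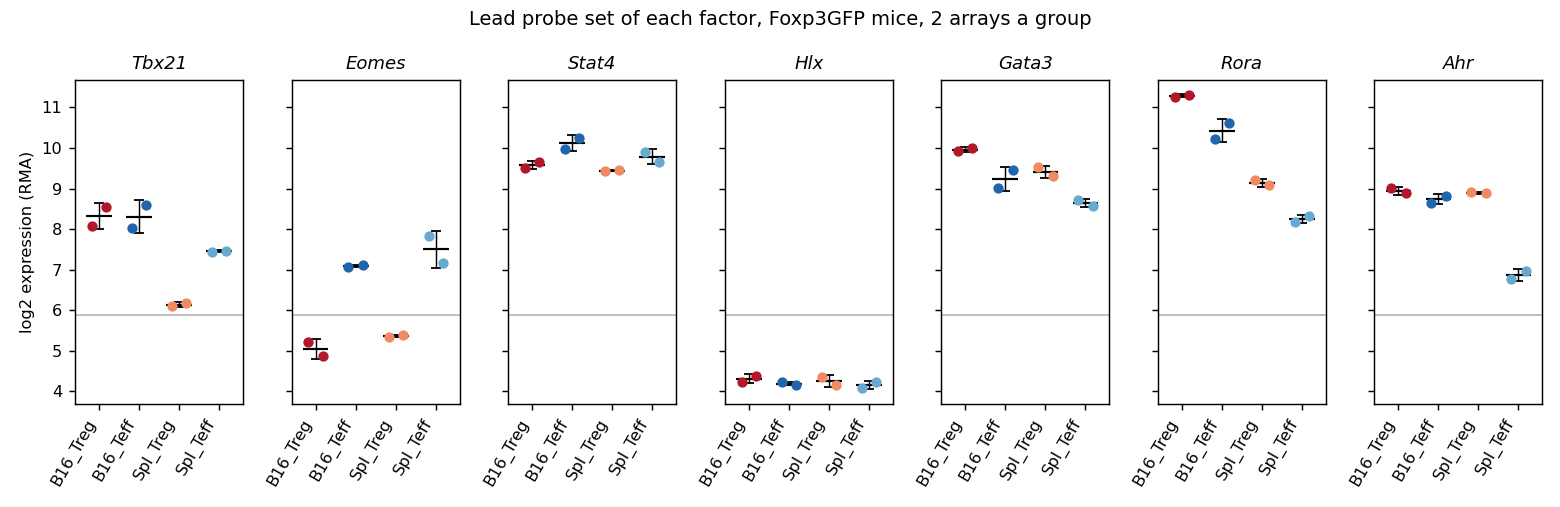
Log2 expression of the lead probe set of each factor on the 8 arrays of Foxp3GFP mice. Points are arrays, horizontal bars group means, error bars the SD of 2 arrays, and the grey line the array medians of 5.87 to 5.90. Rora and Gata3 were higher in B16_Treg than in any other group, Eomes was low in both Treg groups, and Ahr was low in Spl_Teff alone.

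The first question was which factors separate Treg from Teff cells. Between the Foxp3GFP groups of lymphoid tissue, 5 of the 7 factors passed limma's test at an adjusted p under 0.05: Ahr, Rora and Gata3 were higher in Spl_Treg arrays, and Tbx21 and Eomes were lower. Of all probe sets, 12.4% passed in this comparison, 6.27% higher and 6.11% lower. In the tumour 4 of 7 passed, Rora and Gata3 higher and Eomes and Stat4 lower in B16_Treg arrays, where 23.3% of all probe sets passed (12.2% higher, 11.1% lower). In DT-treated mice 1 of 7 passed, Eomes, which was lower in aTreg arrays, beside 6.76% of all probe sets (3.86% higher, 2.9% lower). By probe set, the counts were 7 of 11 in spleen and lymph node, 6 of 11 in the tumour and 2 of 16 in DT-treated mice. The median difference of the 7 lead probe sets was 0.10 in spleen and lymph node, beside -0.01 over all probe sets. It was 0.12 beside 0.00198 in the tumour, and -0.02 beside 0.01 in DT-treated mice. The factors differed in both directions, and their medians stood near 0. Without aTreg array 4 and Teff arrays 4 and 5, a setting chosen after seeing the data, 2 of the 7 passed in DT-treated mice, Eomes and Stat4, both lower, beside 13.2% of all probe sets (6.44% higher, 6.75% lower). Among the probe sets with a mean above their table's median, which hold most lead probe sets, 18.5% passed between Spl_Treg and Spl_Teff, 35.6% between B16_Treg and B16_Teff and 11.8% between aTreg and Teff.

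**Figure D2:**
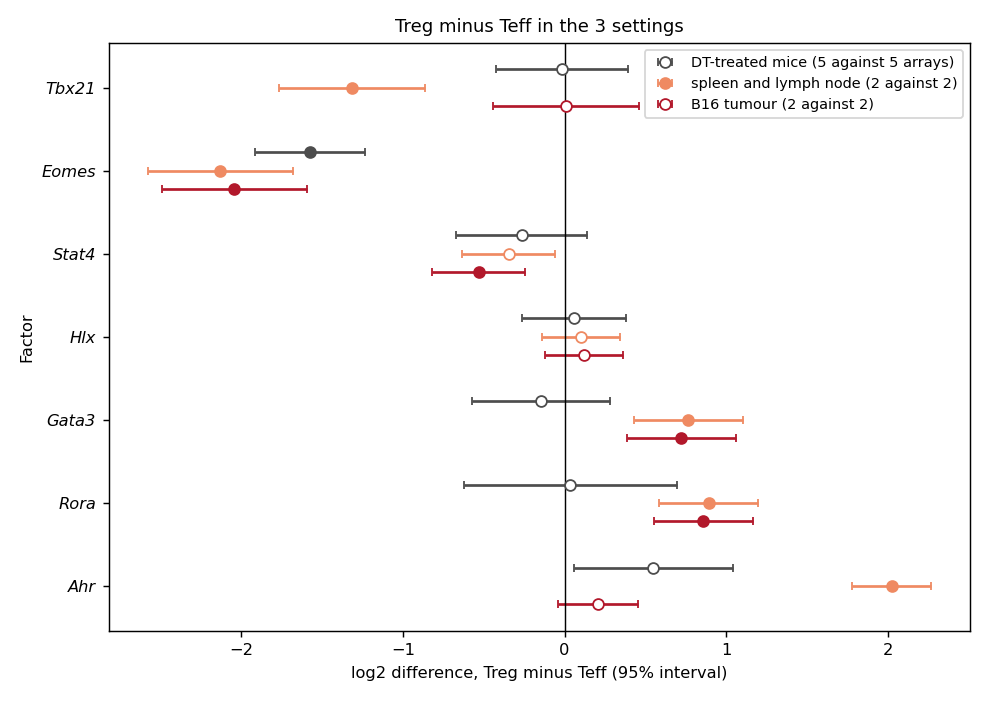
Log2 difference, Treg minus Teff, of each lead probe set in the 3 settings (DT-treated mice, B16 tumours, spleen and lymph node), with 95% intervals from limma. Filled points passed at an adjusted p under 0.05. Eomes lay between -2.13 and -1.58 in all 3 settings, and Ahr was at 2.02 in spleen and lymph node against 0.21 in the tumour.

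Among the Th1 factors, Eomes was lower in Treg arrays in every setting. Its lead probe set (1426001_at) read 6.13, 6.57, 6.43, 6.08 and 5.76 on the 5 aTreg arrays, against 7.97, 7.92, 7.64, 7.83 and 7.51 on the 5 Teff arrays. The means were 6.19 ± 0.318 in aTreg and 7.77 ± 0.194 in Teff arrays (SD, n = 5 each). Every aTreg array lay below every Teff array, a log2 difference of -1.58 (SE 0.156, adjusted p = 8.46e-05), or 2.98-fold lower. In Foxp3GFP mice it read 5.22 and 4.88 in B16_Treg, 7.08 and 7.11 in B16_Teff, 5.35 and 5.39 in Spl_Treg, and 7.82 and 7.18 in Spl_Teff arrays. The groups did not overlap in either tissue. The difference was -2.04 (SE 0.196, adjusted p = 0.000164) in the tumour, or 4.12-fold lower, and in spleen and lymph node -2.13 (SE 0.196, adjusted p = 0.000243), or 4.38-fold lower. Both Treg groups of Foxp3GFP mice were dim for this probe set, so their fold differences are limited by the array's background. In these sorted populations fewer cells of a type and less RNA per cell cannot be told apart, which holds for every value that follows. The second Eomes probe set (1435172_at) passed in the same direction in all 3 settings, at -1.75 (adjusted p = 0.000495) in DT-treated mice, -2.71 (adjusted p = 0.00111) in the tumour and -1.97 (adjusted p = 0.0103) in spleen and lymph node.

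Eomes is also made by NK and CD8 T cells, and some of their markers moved with it. Of 7 NK cell and ILC1 markers measured in DT-treated mice 3 were lower in aTreg arrays, Klrk1 (-2.07), Klrb1c (-1.10) and Xcl1 (-0.81), and 0 were higher. Their summed linear level was 1535 to 1858 in aTreg and 1254 to 2164 in Teff arrays, ranges that overlapped. In the tumour 1 of 6 was lower, Klrk1, at 4.37 in B16_Treg and 7.86 in B16_Teff arrays, and 1 was higher, Nkg7 (0.82). In spleen and lymph node 3 of 6 were lower in Spl_Treg arrays, and the sum was 253 to 254 in Spl_Treg and 595 to 633 in Spl_Teff arrays. Ncr1 and Klra8, defining receptors of NK cells, were dim on all arrays of all 6 groups. The CD8 markers Cd8a and Cd8b1 summed to 114 to 141 in aTreg and 105 to 169 in Teff arrays, 142 to 154 in B16_Treg and 342 to 646 in B16_Teff arrays, and 126 to 128 in Spl_Treg and 141 to 149 in Spl_Teff arrays. They passed in the tumour only, both lower in B16_Treg arrays. The part of these cells in the Eomes differences was not tested.

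Tbx21, the Th1 master factor, passed between Spl_Treg and Spl_Teff and in neither of the other settings. The probe set (1449361_at) read 6.09 and 6.18 on the Spl_Treg arrays, against 7.44 and 7.47 on the Spl_Teff arrays. The groups lay far apart relative to their spread, a difference of -1.31 (SE 0.196, adjusted p = 0.00328), or 2.49-fold lower. The tumour arrays read 8.09 and 8.54 on the B16_Treg arrays, against 8.02 and 8.59 on the B16_Teff arrays. Those groups overlapped, with a difference of 0.01 (95% interval -0.44 to 0.46, adjusted p = 0.985). The aTreg arrays read 8.55, 8.66, 8.30, 8.06 and 8.68, against 8.28, 8.53, 8.62, 7.95 and 8.98 on the Teff arrays. There too the groups overlapped, at -0.02 (95% interval -0.43 to 0.39, adjusted p = 0.979). The intervals of both settings exclude a difference of the size seen in spleen and lymph node.

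Stat4, which relays interleukin-12 signals, passed in the tumour. Its probe set (1448713_at) read 9.51 and 9.66 in B16_Treg and 9.98 and 10.26 in B16_Teff arrays, a difference of -0.53 (SE 0.125, adjusted p = 0.0163). The call ended without B16_Teff array 2 (adjusted p = 0.0948) or without B16_Treg array 1 (adjusted p = 0.101). In spleen and lymph node it read 9.43 and 9.45 in Spl_Treg and 9.91 and 9.66 in Spl_Teff arrays, and the difference of -0.35 did not pass (adjusted p = 0.124). The aTreg arrays read 9.03, 9.11, 9.05, 9.59 and 8.80, against 9.55, 9.66, 9.47, 9.47 and 8.76 on the Teff arrays. The highest aTreg array was number 4 and the lowest Teff array number 5, both among the arrays that stood apart, and the groups overlapped (difference -0.26, adjusted p = 0.534). Without the 3 arrays that stood apart the difference was -0.56 (adjusted p = 0.00565).

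Hlx, a homeobox factor that acts with Tbx21, was dim on all 18 arrays. Its probe set (1418939_at) read from 3.24 to 3.995 in aTreg and from 3.46 to 3.88 in Teff arrays. On the 8 arrays of Foxp3GFP mice it read 4.24 and 4.39 in B16_Treg, 4.22 and 4.16 in B16_Teff, 4.36 and 4.16 in Spl_Treg, and 4.09 and 4.23 in Spl_Teff arrays. None of the 5 comparisons between 2 groups passed (adjusted p from 0.499 to 0.898), and the 4 comparisons of Foxp3GFP groups had 95% intervals that lay between -0.21 and 0.36 in all.

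Gata3, the Th2 master factor, was higher in Treg arrays of Foxp3GFP mice. Its probe set (1448886_at) read 9.92 and 9.997 in B16_Treg and 9.02 and 9.45 in B16_Teff arrays, a difference of 0.72 (SE 0.146, adjusted p = 0.00798). It read 9.52 and 9.31 in Spl_Treg and 8.72 and 8.58 in Spl_Teff arrays, a difference of 0.77 (SE 0.146, adjusted p = 0.0108). The Treg arrays lay above the Teff arrays in both tissues. Each call rested on single arrays: that in the tumour ended without B16_Treg array 2 (adjusted p = 0.0506), and that in spleen and lymph node without Spl_Teff array 2 (adjusted p = 0.0862) or Spl_Treg array 1 (adjusted p = 0.0769). In DT-treated mice the aTreg arrays read 9.38, 9.05, 9.04, 9.84 and 9.24, against 9.48, 9.37, 9.09, 10.05 and 9.31 on the Teff arrays. The groups overlapped almost wholly, and the difference was -0.15 (95% interval -0.57 to 0.28, adjusted p = 0.782). Array 4 was the highest of both groups.

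Rora, the nuclear receptor of the Th17 programme, was also higher in Treg arrays of Foxp3GFP mice and did not differ in DT-treated mice beyond the spread. The lead probe set (1424034_at) read 11.27 and 11.31 in B16_Treg and 10.23 and 10.62 in B16_Teff arrays, a difference of 0.86 (SE 0.133, adjusted p = 0.00208). In spleen and lymph node it read 9.20 and 9.08 in Spl_Treg and 8.17 and 8.32 in Spl_Teff arrays, a difference of 0.89 (SE 0.133, adjusted p = 0.00325). Groups of neither tissue overlapped. The second bright probe set (1420583_a_at) gave 0.89 in the tumour (adjusted p = 0.000677) and 1.02 in spleen and lymph node (adjusted p = 0.00063). The third (1424035_at) was dim on the 8 arrays and passed in neither tissue (0.33 and 0.18). In DT-treated mice the lead probe set read 7.56, 7.29, 7.71, 8.74 and 7.76 in aTreg, against 8.09, 7.57, 7.72, 8.51 and 6.99 in Teff arrays. Arrays 4 were the highest of their groups and Teff array 5 the lowest of all, and the difference was 0.04 (95% interval -0.63 to 0.70, adjusted p = 0.974). None of the 8 Rora probe sets passed there, with differences from -0.29 to 0.09 and unadjusted p-values from 0.289 up. ILC2 also use Rora and Gata3, and their 4 markers summed to 1173 to 1595 in aTreg and 132 to 190 in Teff arrays, although neither factor passed there. Of the 4, Klrg1 alone passed in DT-treated mice, at 10.43 in aTreg and 6.65 in Teff arrays. In Foxp3GFP mice 2 of the 4 were higher and 0 lower in Spl_Treg than in Spl_Teff arrays. In the tumour 2 were higher and 1 lower in B16_Treg arrays. The part of these cells in the Rora and Gata3 differences was not tested.

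Ahr, the aryl hydrocarbon receptor, had the largest difference of the 7 factors toward Treg cells, in spleen and lymph node. Its lead probe set (1422631_at) read 8.91 and 8.88 on the Spl_Treg arrays, against 6.77 and 6.97 on the Spl_Teff arrays. The difference of 2.02 (SE 0.107, adjusted p = 1.69e-05), or 4.07-fold, was many times the spread between arrays. In the tumour it read 9.01 and 8.88 in B16_Treg and 8.65 and 8.82 in B16_Teff arrays, and the difference of 0.21 did not pass (95% interval -0.04 to 0.45, adjusted p = 0.224). The aTreg arrays read 8.31, 8.00, 8.56, 8.30 and 8.27, against 8.11, 7.46, 7.90, 8.28 and 6.94 on the Teff arrays. The aTreg arrays lay close together and the Teff arrays spread downward from them. The means were 8.29 ± 0.197 in aTreg and 7.74 ± 0.541 in Teff arrays (SD, n = 5 each). The difference of 0.55 had an unadjusted p of 0.0319 and did not pass (adjusted p = 0.215). The other Ahr probe set (1450695_at) was dim on all 8 arrays of Foxp3GFP mice and passed nowhere.

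**Figure D3:**
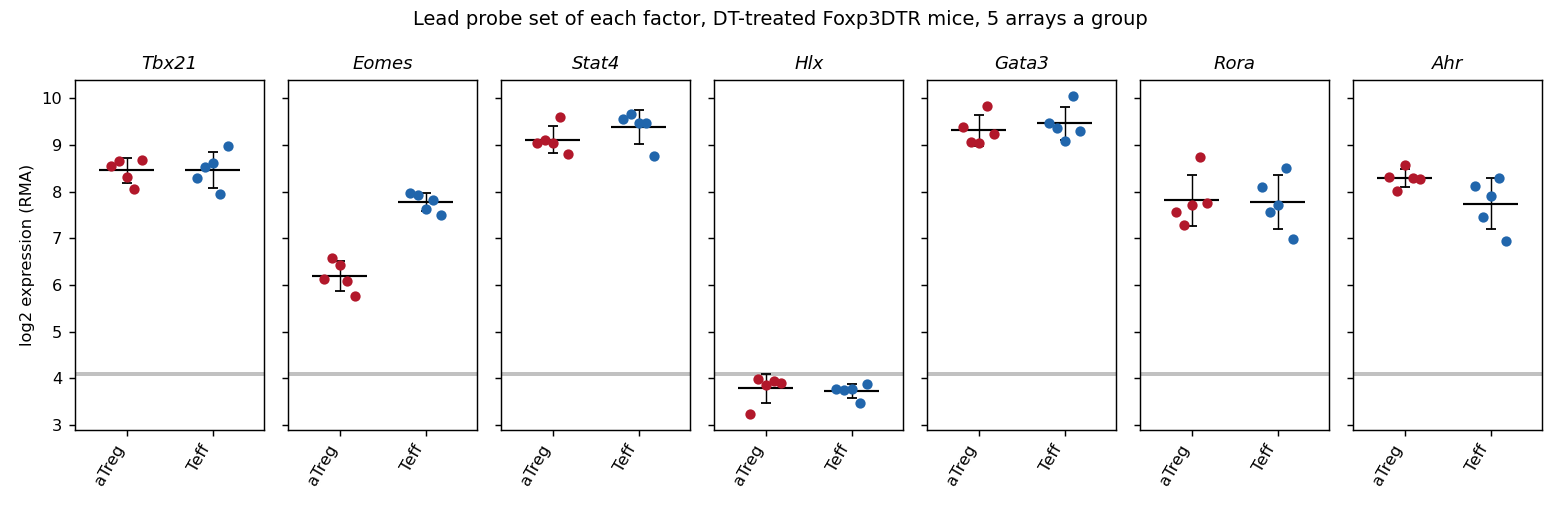
Log2 expression of the lead probe set of each factor on the 10 arrays of DT-treated Foxp3DTR mice. Points are arrays in order of replicate number, horizontal bars group means, error bars the SD of 5 arrays, and the grey band the array medians of 4.05 to 4.14. Eomes is the one factor whose aTreg and Teff arrays did not overlap.

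The second question was how the factors differ between cells from a tumour and cells from lymphoid tissue. Rora, Tbx21 and Gata3 were higher in the tumour in both cell types, and Ahr in Teff cells. Of the 7 factors 3 were higher and 0 lower in B16_Treg than in Spl_Treg arrays, where 10.6% of all probe sets were higher and 11% lower (21.6% in all). Of the 7, 4 were higher and 0 lower in B16_Teff than in Spl_Teff arrays, where 6.92% of all probe sets were higher and 7.01% lower (13.9% in all). Among the probe sets with a mean above the table's median, which hold most lead probe sets, the shares were larger. There 32.5% passed in Treg cells (15.4% higher) and 20.5% in Teff cells (9.72% higher). The median difference of the lead probe sets was 0.15 in Treg and 0.58 in Teff cells, against -0.03 and -0.04 over all probe sets.

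**Figure D4:**
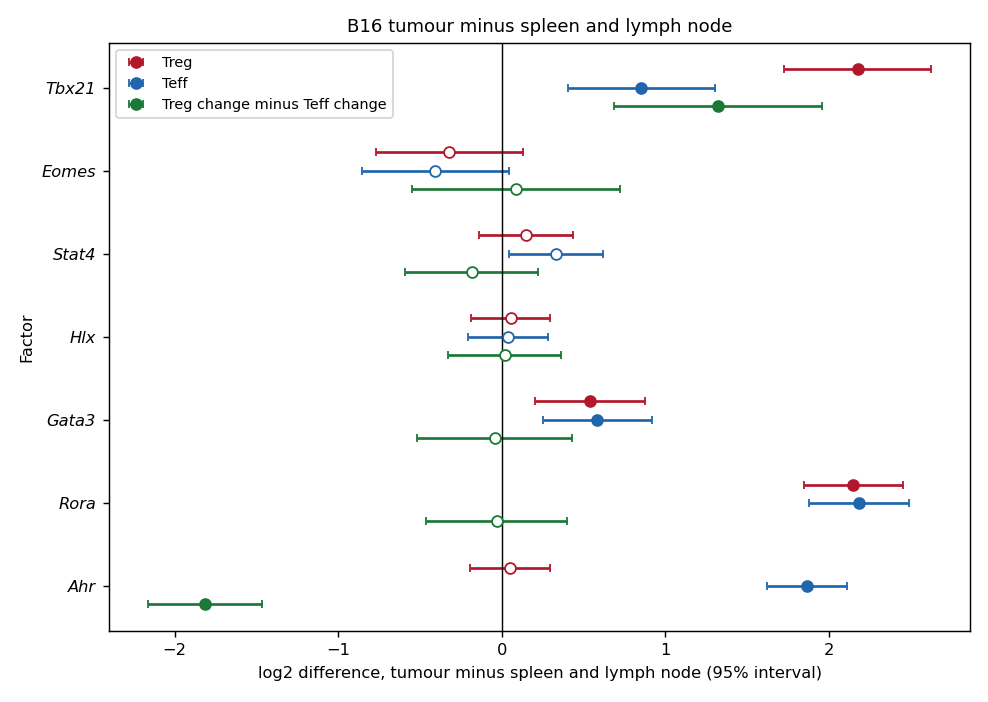
Log2 difference, tumour minus spleen and lymph node, of each lead probe set in Treg and in Teff cells, and the difference between the cell types' changes, with 95% intervals from limma. Filled points passed at an adjusted p under 0.05. Rora lay at 2.15 in Treg and 2.18 in Teff cells, whereas Ahr lay at 0.05 in Treg and 1.87 in Teff cells.

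Rora showed the same tumour difference in both cell types. The B16_Treg arrays, at 11.27 and 11.31, exceeded the Spl_Treg arrays, at 9.20 and 9.08, by 2.15 (SE 0.133, adjusted p = 2.01e-05), or 4.44-fold. The B16_Teff arrays, at 10.23 and 10.62, exceeded the Spl_Teff arrays, at 8.17 and 8.32, by 2.18 (SE 0.133, adjusted p = 5.52e-05), or 4.54-fold. The change of Treg cells minus that of Teff cells was -0.03 (95% interval -0.46 to 0.40, adjusted p = 0.96). The second bright probe set gave 2.14 in Treg and 2.27 in Teff cells, and both passed. The dim one gave 0.60 in Treg (adjusted p = 0.0204) and 0.45 in Teff cells (adjusted p = 0.0807).

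Tbx21 was higher in the tumour in both cell types, by more in Treg cells. The B16_Treg arrays, at 8.09 and 8.54, exceeded the Spl_Treg arrays, at 6.09 and 6.18, by 2.18 (SE 0.196, adjusted p = 0.000144), or 4.52-fold. The B16_Teff arrays, at 8.02 and 8.59, exceeded the Spl_Teff arrays, at 7.44 and 7.47, by 0.85 (SE 0.196, adjusted p = 0.0239), or 1.81-fold. The call in Teff cells ended without B16_Teff array 2 (adjusted p = 0.0975) and without Spl_Teff array 1 or 2 (adjusted p = 0.117 and 0.103). The change of Treg cells minus that of Teff cells was 1.32 (95% interval 0.69 to 1.96, adjusted p = 0.0328), a call that ended without any 1 of 6 of the 8 arrays, with adjusted p from 0.0547 to 0.111. It held without B16_Treg array 1 and without B16_Teff array 2.

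Gata3 was higher in the tumour by a smaller amount. The difference was 0.54 (SE 0.146, adjusted p = 0.031) in Treg and 0.58 (SE 0.146, adjusted p = 0.0328) in Teff cells. The call in Treg cells ended without any 1 of the 4 arrays compared (adjusted p from 0.0552 to 0.155). That in Teff cells ended without B16_Teff array 2 (adjusted p = 0.136), without either Spl_Teff array (adjusted p = 0.0923 and 0.169), without either B16_Treg array (adjusted p = 0.0521 in both cases) and with the 2 groups fitted alone (adjusted p = 0.0691).

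Ahr differed between tumour and spleen in Teff cells. The B16_Teff arrays, at 8.65 and 8.82, exceeded the Spl_Teff arrays, at 6.77 and 6.97, by 1.87 (SE 0.107, adjusted p = 4.33e-05), or 3.64-fold. The B16_Treg arrays, at 9.01 and 8.88, overlapped the Spl_Treg arrays, at 8.91 and 8.88 (difference 0.05, 95% interval -0.20 to 0.30, adjusted p = 0.801). The change of Treg cells minus that of Teff cells was -1.82 (SE 0.152, adjusted p = 0.00101), and it passed under every alternative run. Of the 7 factors Ahr and Tbx21 passed this test of the difference, beside 5.06% of all probe sets (2.42% higher, 2.64% lower).

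Eomes, Stat4 and Hlx did not pass in either cell type. For Eomes the tumour difference was -0.32 in Treg (adjusted p = 0.305) and -0.41 in Teff cells (adjusted p = 0.222), with both B16_Teff arrays below both Spl_Teff arrays. The second Eomes probe set differed by -0.10 in Teff cells (adjusted p = 0.904), with overlapping groups. Leaving out 1 array moved the lead value to between -0.73 and -0.0842, the ends being without Spl_Teff array 2 and without Spl_Teff array 1. Stat4 differed by 0.15 (adjusted p = 0.479) in Treg and 0.33 (adjusted p = 0.126) in Teff cells, and Hlx by 0.05 and 0.04.

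Markers of other cells moved with the tumour as well. Melanoma markers summed to 1580 to 2139 in B16_Treg and 1085 to 2287 in B16_Teff arrays, against 142 to 154 in Spl_Treg and 156 to 158 in Spl_Teff arrays, and 4 of 5 were higher in both cell types. Plasmacytoid dendritic cell markers summed to 687 to 797 in B16_Treg, 4891 to 9597 in B16_Teff, 687 to 905 in Spl_Treg and 1361 to 1478 in Spl_Teff arrays. All 5 measured were higher in B16_Teff than in Spl_Teff arrays, and all 5 were lower in B16_Treg than in B16_Teff arrays. Myeloid markers summed to 408 to 688 in B16_Treg, 2565 to 4572 in B16_Teff, 1315 to 1656 in Spl_Treg and 1234 to 1467 in Spl_Teff arrays, with Itgam and Cd14 dim on all 8. Both CD8 markers were higher in B16_Teff than in Spl_Teff arrays (median difference 1.51). B cell markers summed to 179 to 200 in B16_Treg, 423 to 729 in B16_Teff, 376 to 402 in Spl_Treg and 396 to 455 in Spl_Teff arrays, and 4 of 7 were lower in B16_Treg than in Spl_Treg arrays. NK cell and ILC1 markers, of cells that use Tbx21 and Eomes, summed to 1979 to 2468 in B16_Treg, 1363 to 1743 in B16_Teff, 253 to 254 in Spl_Treg and 595 to 633 in Spl_Teff arrays. Of the 6 measured, 2 were higher and 0 lower in the tumour in each cell type. Their median differences were 0.17 in Treg and 0.14 in Teff cells. Ncr1, Klrb1c, Klra8 and Klrk1 were dim on the B16_Treg arrays, where most of the sum came from Xcl1 and Nkg7. Of stromal and endothelial markers, 4 of 6 were higher in the tumour in each cell type. The T cell markers stayed in a narrow range, at 17425 to 21762 over the tumour arrays and 19880 to 20785 over the arrays from spleen and lymph node. ILC2 markers summed to 1789 to 2485 in B16_Treg, 168 to 181 in B16_Teff, 565 to 658 in Spl_Treg and 109 to 111 in Spl_Teff arrays. Most of that sum in Treg arrays was Klrg1, a receptor that Treg cells also carry, at 10.97 in B16_Treg and 8.93 in Spl_Treg arrays. The ILC2 genes Hpgds and Calca were dim on every array. Il17rb, the remaining marker, was dim on all B16_Treg and Spl_Teff arrays but not on all B16_Teff and Spl_Treg arrays. Of the 4 markers, 2 were higher and 1 lower in B16_Treg than in Spl_Treg arrays. In B16_Teff against Spl_Teff arrays 2 were higher and 0 lower. The part of these cells in the tumour differences of the factors was not tested.

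Taking the 4 groups of Foxp3GFP mice in order of their means, Rora separated all of them: B16_Treg stood above B16_Teff, B16_Teff above Spl_Treg and Spl_Treg above Spl_Teff, and each neighbour differed. Between B16_Teff and Spl_Treg, neighbours for several factors, 19.4% of all probe sets passed (9.15% higher, 10.2% lower in B16_Teff). For Gata3 the order was B16_Treg, Spl_Treg, B16_Teff and Spl_Teff, and the middle pair did not differ (adjusted p = 0.456). For Tbx21 it was B16_Treg, B16_Teff, Spl_Teff and Spl_Treg, and the top pair did not differ. For Ahr it was B16_Treg, Spl_Treg, B16_Teff and Spl_Teff, and of the neighbours B16_Teff and Spl_Teff alone differed. For Eomes it was Spl_Teff, B16_Teff, Spl_Treg and B16_Treg, and B16_Teff and Spl_Treg alone differed (adjusted p = 0.000531). No neighbours differed for Stat4 or Hlx.

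The promoters of the 3 factors that were higher in the tumour in both cell types are shown because these genes share that direction, though neither its size nor their order over the groups. Each runs 5′ to 3′ from 250 bases before to 50 bases after the transcript start in RefSeq (GRCm38.p6), and capitals mark the only motif match found.
Tbx21, chr11:97115282-97115581, minus strand: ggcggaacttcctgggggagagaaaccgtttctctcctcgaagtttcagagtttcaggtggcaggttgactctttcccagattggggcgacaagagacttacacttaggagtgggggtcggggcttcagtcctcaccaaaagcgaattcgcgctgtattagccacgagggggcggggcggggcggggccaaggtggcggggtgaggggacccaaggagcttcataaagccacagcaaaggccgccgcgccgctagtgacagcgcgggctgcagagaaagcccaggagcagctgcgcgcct
Gata3, chr2:9878551-9878850, minus strand: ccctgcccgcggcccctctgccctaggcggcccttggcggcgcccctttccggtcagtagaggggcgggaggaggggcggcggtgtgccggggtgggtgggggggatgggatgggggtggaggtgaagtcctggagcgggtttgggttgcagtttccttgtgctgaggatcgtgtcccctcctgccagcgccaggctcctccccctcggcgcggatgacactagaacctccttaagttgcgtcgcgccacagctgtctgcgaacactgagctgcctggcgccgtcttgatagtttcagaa
Rora, chr9:68653536-68653835, plus strand: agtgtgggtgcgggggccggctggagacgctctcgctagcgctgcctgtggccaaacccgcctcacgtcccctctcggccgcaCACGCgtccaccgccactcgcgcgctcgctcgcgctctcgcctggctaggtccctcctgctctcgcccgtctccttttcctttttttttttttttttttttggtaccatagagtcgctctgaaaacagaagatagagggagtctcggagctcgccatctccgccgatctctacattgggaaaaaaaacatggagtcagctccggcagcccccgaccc
Matches were sought on both strands for the core letters of 5 motifs, in windows found for 6 of the 7 factors (7 windows, 2 of them for Stat4). The AHR core GCGTG was found in the windows of Rora, in the capitals above as its reverse complement at -167 from the start, and of Hlx, and it occurs in 32.4% of 32851 promoters of that length. The ROR core AGGTCA was found in 1 Stat4 window and occurs in 16.3%. The GATA site AGATAA (11.2% of promoters), the T-box site AGGTGTGA (1.28%) and the STAT site TTCNNNGAA (8.30%) were not found in any of the 7 windows. Motifs overlapped nowhere in these windows, and a match is a string of letters, not a measured binding site.

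**Figure D5:**
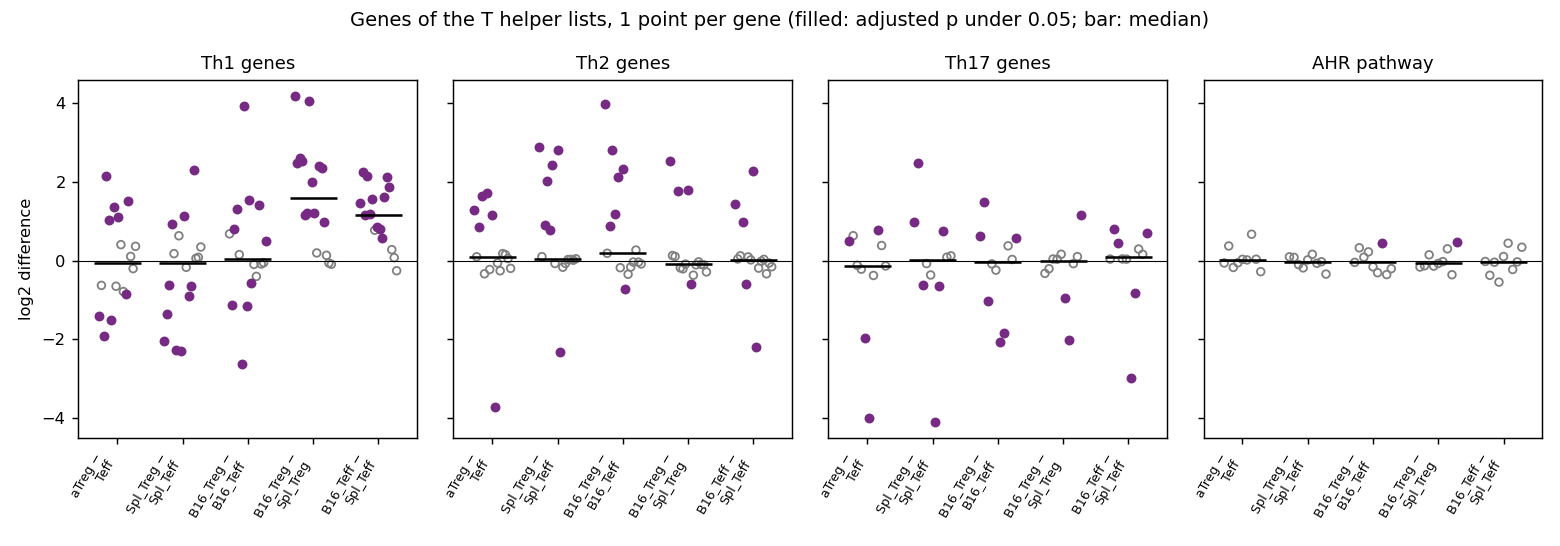
Log2 differences of the genes of 4 T helper lists in the 5 comparisons, 1 point per gene, with the list's median as a bar. Filled points passed at an adjusted p under 0.05. Th1 genes lay above 0 in both comparisons of tumour with spleen and lymph node, with medians of 1.61 in Treg and 1.17 in Teff cells, while at most 1 of 9 AHR pathway genes passed in each comparison.

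Genes that act downstream of or beside these factors were counted on lead probe sets, in lists chosen with earlier results of these data known. Most Th1 genes were higher in the tumour. Of 16, 12 were higher and 0 lower in B16_Treg than in Spl_Treg arrays, where 10.6% of all probe sets were higher (median difference 1.61, against -0.03 over all probe sets). Likewise 12 were higher and 0 lower in B16_Teff than in Spl_Teff arrays, where 6.92% of all probe sets were higher (1.17 against -0.04). In Treg cells the chemokine Ccl3 (4.19), the inhibitory receptor Havcr2 (4.07) and the chemokine Ccl5 (2.60) led. In Teff cells the higher genes included the chemokine Ccl4 (2.27) and the interleukin-18 receptor chain Il18rap (2.13). Ifng, the signature cytokine of Th1 cells, named here after its values were seen, averaged 8.08 in B16_Treg, 9.23 in B16_Teff, 6.08 in Spl_Treg and 8.38 in Spl_Teff arrays. It was higher in the tumour by 1.996 in Treg (adjusted p = 0.000478) and 0.85 in Teff cells (adjusted p = 0.0411). The transcription factors Runx3 and Irf1 passed in neither cell type.

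Between Treg and Teff cells the Th1 genes went both ways. In spleen and lymph node 3 were higher and 7 lower in Spl_Treg arrays, with Ifng at -2.30 and the death ligand Fasl at -2.26, and Il2rb, a receptor chain for interleukin-2, at 2.31. In the tumour 6 were higher and 4 lower in B16_Treg arrays, with Havcr2 at 3.93 and Fasl at -2.62. Ifng was lower there by 1.16 on the log2 scale (adjusted p = 0.00687), while Tbx21 did not pass. In DT-treated mice 5 were higher and 4 lower in aTreg arrays, with Il2rb at 1.52 and Ccl5 at -1.90. Over all probe sets, 6.27% were higher and 6.11% lower in Spl_Treg arrays. The shares were 12.2% and 11.1% in B16_Treg arrays, and 3.86% and 2.9% in aTreg arrays. The change of Treg cells with the tumour exceeded that of Teff cells for 4 Th1 genes and was smaller for 0, among them Havcr2 (3.29), Ccl3 (2.71) and Ccl5 (1.44), beside 2.42% of all probe sets with a larger change and 2.64% with a smaller one. Havcr2 was dim on average in B16_Teff (5.19), Spl_Treg (5.04) and Spl_Teff (4.41) arrays. Ccl3 (4.55) and Fasl (5.76) were dim on average in Spl_Treg arrays. Differences of these genes against those groups are limited by background.

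Of the 15 Th2 genes, 6 were higher and 1 lower in Spl_Treg arrays, 6 higher and 1 lower in B16_Treg arrays, and 5 higher and 1 lower in aTreg arrays, each against the Teff arrays of the same setting. Of all probe sets, 6.27% were higher and 6.11% lower in Spl_Treg, 12.2% and 11.1% in B16_Treg, and 3.86% and 2.9% in aTreg arrays. The growth factor Areg was higher by 2.89 in spleen and lymph node, 3.99 in the tumour and 1.29 in DT-treated mice. Il1rl1, the interleukin-33 receptor, was higher by 2.82 and 2.33 in the 2 tissues of Foxp3GFP mice. The lower gene was Il4, the cytokine that defines Th2 cells, in all 3 settings (-2.32, -0.71 and -3.72). In the tumour it was dim in both groups, at 3.15 in B16_Treg and 3.87 in B16_Teff arrays, and in spleen and lymph node it was dim in Spl_Treg arrays (3.74), so these differences are limited by background. Areg, Il1rl1 and the chemokine receptor Ccr8 were the 3 Th2 genes higher in B16_Treg than in Spl_Treg arrays (2.54, 1.80 and 1.77). The same 3 were higher in B16_Teff than in Spl_Teff arrays (1.45, 2.29 and 0.98). Areg (5.62), Il1rl1 (5.34) and Ccr8 (3.87) were dim on average in Spl_Teff arrays, and Ccr8 also in B16_Teff arrays (4.85). Their differences against those groups, here and above, are limited by background. Il4 was the 1 lower gene in Treg cells (-0.58, dim in both groups). In Teff cells Il4 (-2.20, dim in B16_Teff arrays) and the factor Gfi1 (-0.59) were the 2 lower genes. Of all probe sets, 10.6% were higher and 11% lower in Treg cells, and 6.92% and 7.01% in Teff cells.

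Of the 13 Th17 genes, 10 had a lead probe set, without Il17f, Il22 and Il23r. Against Teff arrays, 3 were higher and 3 lower in Spl_Treg, 3 and 3 in B16_Treg, and 2 and 2 in aTreg arrays, beside 12.4%, 23.3% and 6.76% of all probe sets that passed in either direction. Ccr6, the chemokine receptor of Th17 cells, was higher by 1.498 in the tumour and 2.50 in spleen and lymph node. The difference of the cytokine Il21 was -4.09 in spleen and lymph node, -2.07 in the tumour and -3.99 in DT-treated mice. Il17a differed by -1.02 between B16_Treg and B16_Teff and by -0.61 between Spl_Treg and Spl_Teff. Il21 was dim on average in B16_Treg (3.70), B16_Teff (5.77), Spl_Treg (4.65) and aTreg arrays (3.67). Il17a was dim on average in B16_Treg (4.95), Spl_Treg (4.90) and Spl_Teff arrays (5.51). The differences of both cytokines are thus limited by background. In the tumour against spleen and lymph node, Stat3, which relays interleukin-6 signals, was higher by 1.17 in Treg and 0.72 in Teff cells. Il6ra, a chain of the interleukin-6 receptor, was lower, at -2.002 in Treg and -0.81 in Teff cells.

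Of the 9 genes of the AHR pathway, 0 or 1 passed in each comparison, too short a list for these counts to be read against the share of all probe sets that passed. In the comparison of Spl_Treg with Spl_Teff, in which Ahr itself differed by 2.02, 0 of 9 passed limma's test, beside 12.4% of all probe sets, and 1 had an unadjusted p under 0.05. In that of B16_Teff with Spl_Teff, in which Ahr differed by 1.87, 0 of 9 passed limma's test, beside 13.9% of all probe sets, and 3 had an unadjusted p under 0.05. In that of aTreg with Teff, 0 of 9 passed limma's test, beside 6.76% of all probe sets, and 2 had an unadjusted p under 0.05. Tiparp, a target gene of the receptor, was higher by 0.48 in B16_Treg than in Spl_Treg arrays (adjusted p = 0.0205), and Nqo1, a reductase, by 0.46 in B16_Treg than in B16_Teff arrays (adjusted p = 0.0238), both of which were dim for it (4.35 and 3.89).

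Among 16 other lineage and STAT factors, some of which also stand in the lists above, 4 were higher and 1 lower in Spl_Treg, 5 and 0 in B16_Treg, and 2 and 2 in aTreg arrays, each against Teff arrays, beside 12.4%, 23.3% and 6.76% of all probe sets in either direction. The 16 include Foxp3, by which the cells were sorted. It was among the 4 higher in Spl_Treg arrays (6.85), a call fixed by the sort. Batf, an AP-1 factor, was higher in all 3 settings (0.99, 0.63 and 0.51). Bcl6, the factor of follicular helper cells, was lower in aTreg arrays (-2.39) and, in the tumour, in Treg (-1.22) and Teff cells (-1.10). Zfpm1, a cofactor of Gata3, was lower in Spl_Treg than in Spl_Teff arrays (-0.54), in aTreg than in Teff arrays (-0.60) and in the tumour in Treg (-0.61) and Teff cells (-0.86).

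Genes with the most similar pattern were found by Pearson's r over the arrays of a table, among lead probe sets with a mean above the array median. The arrays share groups and normalization, so these values describe the tables. Over the 8 arrays of Foxp3GFP mice, with 7071 candidate genes, Cxcr6 (r = 0.983), a chemokine receptor, was among the nearest to Tbx21, after Nrbp1 (0.986). Slamf1 (0.989) was nearest to Ahr, Odc1 (0.993) to Rora, Cdkn2c (0.993) to Gata3, Pacs2 (0.988) to Eomes and Phf13 (0.977) to Stat4. Over the 10 arrays of DT-treated mice, with 11945 candidates, Mctp2 (0.985) was nearest to Eomes and Cdk5rap3 (0.983) to Tbx21. The nearest genes were Usp38 (0.984) for Stat4, Pggt1b (0.974) for Rora and Nvl (0.961) for Ahr.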

How the data were processed

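The values are log2 expression values that the authors made by RMA, which corrects background, equalises the arrays' distributions and summarises probes, and then deposited, per the submitters' processing notes. No version or scan batch is given in the sources used. Of the 21 value columns of a further deposited table, 5 repeated the aTreg arrays within 5e-09 and gave the gene names, and 16 were not used. Symbols were updated through a RefSeq gene table (GRCm38.p6), which also gave the promoter windows.

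Each table was fitted on all its probe sets with lmFit and eBayes of limma 3.58.1 (R 4.3.3), with 1 coefficient per group, no covariates and no filter. P-values were adjusted by Benjamini-Hochberg over the table, with a threshold of 0.05. Every adjusted p comes from limma, and recovery of known changes was checked on simulated data. The titles' replicate numbers were not used as pairs. Lists hold textbook genes of each lineage or cell type. The rule for named genes takes, per list, comparison and direction, at most 3 passing genes with the largest differences, and some genes it names are not reported here. Members and lists were chosen with earlier results of these data known. Counts and lists were made in Python 3.11.15 (pandas 2.3.3) and figures drawn with matplotlib 3.10.9.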

Additional observations from a re-analysis of the deposited data

Results flagged for a closer look

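Of the groups of 5 arrays, 4 of the 32 examined (16 probe sets in 2 groups) held an array far from the others by Dixon's test at the 95% level, which chance gives in about 1 group in 20. Stat4 (1448713_at) read 8.76 on Teff array 5, below the other Teff arrays. Hlx (1418939_at) read 3.24 on aTreg array 1, below the other aTreg arrays, in the dim range. Rora (1458129_at) read 5.70 on aTreg array 5, and the dim Ahr probe set (1450695_at) read 4.64 on aTreg array 4, each above the other aTreg arrays.

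The test of whether the difference between tumour and spleen depended on the cell type passed for Tbx21 and Ahr. For Tbx21 the change of Treg cells minus that of Teff cells was 1.32 (adjusted p = 0.0328 by limma's interaction test), and for Ahr it was -1.82 (adjusted p = 0.00101).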

How the results depend on the processing

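Each of the 42 differences (7 factors, 6 comparisons) was recomputed with the replicate number as a block, without dim probe sets, with trend and robust eBayes, with arrays centred on their median, with 1 probe set per gene and without each array in turn. Comparisons of 2 Foxp3GFP groups were also fitted on those groups alone, and those of DT-treated mice on the probe sets of both tables and without the 3 arrays that stood apart. Where an array was left out of a pair, the lone one was taken to vary like the other groups. Of the 19 called differences, 12 kept their call in all alternatives run for them, 7 lost it in at least 1, as given beside them, and 0 changed sign. The replicate block, for example for Ahr in spleen and lymph node (2.02, adjusted p = 7.12e-05), changed no call of a factor. The labels state no pairing. In DT-treated mice deviations of same-numbered arrays correlated at 0.0436, 0.221, 0.407, 0.517 and 0.474, and numbers 3, 4 and 5 matched their own number best, a hint that falls short of the rule of over 0.1 in every pair. Within numbers Ahr was higher in aTreg in 5 of 5 (adjusted p = 0.0686 with the block) and Gata3 lower in 5 of 5 (adjusted p = 0.43). In Foxp3GFP mice both numbers give the same correlation, since a group has 2 arrays. It was 0.179 between B16_Treg and B16_Teff, which meets that rule, and 0.0545 between Spl_Treg and Spl_Teff. The tumour comparison was still fitted unpaired in the main results. Without dim probe sets Hlx had no value. Of the 23 uncalled differences, 4 gained a call: Stat4 in DT-treated mice without the 3 arrays that stood apart (-0.56), Stat4 with trend and robust eBayes in spleen and lymph node (adjusted p = 0.0455) and between B16_Teff and Spl_Teff (adjusted p = 0.0496), and Eomes between B16_Teff and Spl_Teff without Spl_Teff array 2 (-0.73, adjusted p = 0.0372).

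The number of factors called in DT-treated mice was 2 without those 3 arrays. Leaving out 1 array lowered the number of factors called in every comparison of Foxp3GFP groups and in the interaction, for at least 1 of the arrays. Sign changes occurred in 12 uncalled differences. In DT-treated mice, without the 3 arrays, Hlx was at -0.0143, Rora at -0.21 and Tbx21 at 0.0744, and with centred arrays Tbx21 was at 0.0040. Leaving out 1 array, the ranges in DT-treated mice were -0.0070 to 0.20 (Hlx), -0.20 to 0.22 (Rora), -0.28 to 0.0016 (Gata3) and -0.15 to 0.11 (Tbx21). Tbx21 in the tumour ranged from -0.28 to 0.29. Between B16_Treg and Spl_Treg, Hlx ranged from -0.0476 to 0.16 and Ahr from -0.0171 to 0.12, and between B16_Teff and Spl_Teff, Hlx from -0.0331 to 0.11. For the interaction the ranges were -0.0840 to 0.12 (Hlx), -0.23 to 0.16 (Rora), -0.24 to 0.41 (Eomes) and -0.26 to 0.17 (Gata3). The cause was not tested. Signal over background limits Hlx, the dim probe sets of Rora and Ahr, and Eomes in Treg arrays of Foxp3GFP mice. It also limits Havcr2, Ccl3, Fasl, Il4, Areg, Il1rl1, Ccr8, Il17a, Il21 and Nqo1 in the groups named as dim.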
